A study of Mus musculus with 16 samples.

Results

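The alpha-arrestin family of the mouse was described here by 5 genes, Arrdc1, Arrdc2, Arrdc3, Arrdc4 and Txnip, of the 24060 genes measured in each library. Each was found by its gene symbol, and all 5 were present in all 16 libraries. The set was chosen from the values of stress IP against naïve IP, in which Arrdc2 had been seen to be higher, so that contrast is given for these genes as a description with no test.

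RNA of the somatosensory cortex was sequenced from mice of 3 months on a C57BL/6J background that carried Aldh1l1-cre/ERT2 and RiboTag. In these mice tamoxifen switches on an HA tag on the ribosomal protein Rpl22 in cells that use the Aldh1l1 promoter, which is active in astrocytes. All groups, the naïve controls included, carried both transgenes and had received tamoxifen at 2 months of age, by the labels 4 weeks before the experiment, while the methods give a shorter interval. IP is the RNA pulled down with the tagged ribosomes, and INPUT is the RNA of the whole cleared lysate, from all cells of the tissue. Naïve mice had no swim, and stressed mice swam for 20 min and then rested for 90 min. Each fraction had 4 libraries of naïve and 4 of stressed mice, from 8 individually processed animals of both sexes. By the methods, IP and INPUT were taken from the lysate of the same animal, but the labels do not tie the libraries by animal. Levels are given as counts per 1000000 reads on genes (CPM), from 16392876 to 25814364 reads per library.

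The labelled cell type was checked against markers. The summed level of 6 astrocyte markers was 79511 to 91144 CPM in IP and 4422 to 5351 CPM in INPUT, and that of 6 neuronal markers was 334 to 551 CPM in IP and 9619 to 11272 CPM in INPUT. The sum of 4 mural-cell markers was also higher in IP (98.5 to 155 CPM against 43.4 to 55.8 CPM), through Pdgfrb at 89.0 to 149 CPM against 20.6 to 27.4 CPM, while Rgs5, Acta2 and Kcnj8 were lower. The sum of 3 blood markers was 10.9 to 21.5 CPM in IP and 1.30 to 6.84 CPM in INPUT, nearly all of it Alas2, with Hba-a1 at 0 in all libraries. Libraries fell into 8 with Xist, a female-expressed RNA, at 122 to 665 CPM and 8 at 0.0997 to 0.456 CPM, 2 of each in every group. Replicate 11 of naïve IP stood apart from its group for Arrdc2 and Txnip, and values with and without it are given.

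Arrestins are cytosolic adaptor proteins that bind receptors and transporters in membranes. The alpha-arrestins among them carry PPxY motifs that recruit ubiquitin ligases of the NEDD4 family, which mark the bound cargo for uptake and sorting. Txnip, the thioredoxin-interacting protein, also binds thioredoxin and lowers glucose uptake through the glucose transporters, and its transcription follows glucose through the Mondo-Mlx factors. Arrdc4 is its closest relative and is driven by the same factors. Arrdc3 is known for the sorting of beta-adrenergic receptors, and Arrdc1 for the release of small vesicles from the plasma membrane with the help of ESCRT proteins.

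On GRCm38 with the GENCODE M21 annotation, Arrdc2 lies on the minus strand of chromosome 8 (70835129 to 70839720) and Txnip on the plus strand of chromosome 3 (96557957 to 96561883). Arrdc4 is on the minus strand of chromosome 7 (68736995 to 68749241), Arrdc3 on the plus strand of chromosome 13 (80883384 to 80896042) and Arrdc1 on the minus strand of chromosome 2 (24925352 to 24935252). The antisense gene Gm15441 covers all 3927 bases of Txnip, and whether reads were counted by strand is not given in the sources used here. Gm15441 itself was counted at 0 to 0.228 CPM, at most 0.633% of the Txnip level in the same library.

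The 250 bases upstream of the start sites of Arrdc2, Txnip and Arrdc4 are shown because Arrdc2 and Txnip had the 2 largest stress differences and Arrdc4, the close relative of Txnip, had a small one. They are read 5′ to 3′ on the strand of the gene from RefSeq on GRCm38.p6, at chr8:70839721-70839970 (minus strand), chr3:96557707-96557956 (plus strand) and chr7:68749239-68749488 (minus strand), and capitals mark the motifs found.
Arrdc2: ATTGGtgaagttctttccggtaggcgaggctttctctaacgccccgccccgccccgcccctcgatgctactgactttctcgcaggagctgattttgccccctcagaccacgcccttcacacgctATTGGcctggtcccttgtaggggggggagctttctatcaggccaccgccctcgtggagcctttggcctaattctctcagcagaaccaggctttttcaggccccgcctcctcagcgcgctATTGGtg
Txnip: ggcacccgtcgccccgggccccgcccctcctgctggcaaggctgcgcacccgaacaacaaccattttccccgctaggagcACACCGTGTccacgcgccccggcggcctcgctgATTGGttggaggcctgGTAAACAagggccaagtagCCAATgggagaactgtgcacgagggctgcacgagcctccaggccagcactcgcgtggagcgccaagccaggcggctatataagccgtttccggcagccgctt
Arrdc4: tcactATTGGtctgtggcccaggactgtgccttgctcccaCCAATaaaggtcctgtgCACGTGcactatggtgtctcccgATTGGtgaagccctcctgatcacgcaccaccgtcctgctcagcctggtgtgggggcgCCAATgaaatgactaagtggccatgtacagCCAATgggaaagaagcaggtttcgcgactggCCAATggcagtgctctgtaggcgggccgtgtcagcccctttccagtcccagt

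In all, 6 motifs were searched on both strands, and no match overlapped a match of another motif. The Arrdc2 window held the CCAAT box, CCAAT, 3 times as its reverse complement, at −250, −126 and −7 bases from the start site, and no match of the rest. The Txnip window held ACANNNTGT, the core of a glucocorticoid response element, at −170, the forkhead motif GTAAACA at −121, and the CCAAT box at −137 and −102. The Arrdc4 window held the E-box CACGTG, which the Mondo-Mlx factors bind in tandem, at −193 and the CCAAT box 6 times. Only the exact letters CACGTG were searched, so E-boxes with other letters would be missed in any window, that of Txnip included. Of 32851 such windows of the mouse genes, 33.8% held CCAAT, 5.84% ACANNNTGT, 3.17% GTAAACA and 6.02% CACGTG. The exact letters TATAAA of the TATA box (12.4% of all windows) were in none of the windows of the 5 genes. Nor were the letters TGACGTCA of the cyclic AMP response element (1.55%). TATA boxes of other letters would be missed in the same way, and the Txnip window holds TATATAAG close to its start site. A match describes the letters only, and binding was not measured.

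The 5 genes differed widely in level. Per kb of exon, the mean level in naïve INPUT was highest for Arrdc3, at 9.14 ± 0.335 CPM per kb (SD, n = 4). Txnip followed at 5.97 ± 1.21, Arrdc2 at 2.70 ± 0.567, Arrdc4 at 1.85 ± 0.118 and Arrdc1 at 1.47 ± 0.316. Only the last pair of neighbours, Arrdc4 and Arrdc1, overlapped between libraries. In stress INPUT the order was the same, with Arrdc3 at 10.0 ± 0.490 and Txnip at 8.15 ± 1.18 CPM per kb, which now overlapped, as did Arrdc4 and Arrdc1.

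In astrocyte ribosome-bound RNA the order was another. In naïve IP the mean levels were 4.25 ± 3.14 CPM per kb for Txnip, 3.93 ± 1.65 for Arrdc2 and 3.08 ± 0.352 for Arrdc3, and neighbours among these overlapped. Arrdc4 (0.774 ± 0.0822) and Arrdc1 (0.591 ± 0.113) lay below all of them and apart from each other. The first place of Txnip in naïve IP rests on replicate 11, at 8.95 CPM per kb. In replicates 2, 8 and 13 Txnip was at 2.70, 2.83 and 2.52, below Arrdc2 at 2.88, 3.34 and 3.10 and near Arrdc3 at 2.77, 3.50 and 2.81. In stress IP Txnip, at 10.6 ± 3.22 CPM per kb, and Arrdc2, at 10.5 ± 2.51, overlapped and both lay above every Arrdc3 value (3.92 ± 0.264), while Arrdc4 (0.824 ± 0.129) and Arrdc1 (0.458 ± 0.145) were again lowest. With the longest transcript as the length, Arrdc2 came before Txnip in both IP groups, at 14.4 against 11.7 CPM per kb in stress IP, and Arrdc1 came before Arrdc4 in all groups but stress IP. So the order of these 2 pairs depends on the transcript length used.

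**Figure D1:**
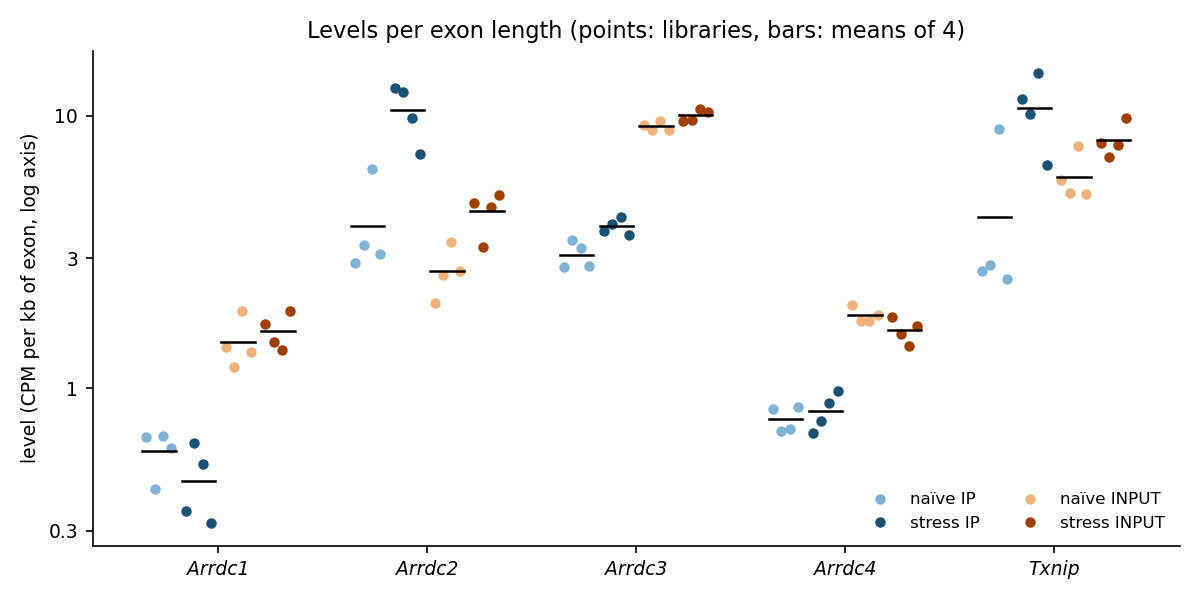
Level of each gene in CPM per kb of exon (vertical log axis), with 1 point per library and a bar at the mean of 4 libraries, coloured by group. Txnip and Arrdc2 stand highest in stress IP, at means of 10.6 and 10.5, and Arrdc3 stands highest in INPUT, at 9.14 in naïve and 10.0 in stressed mice.

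After stress, Arrdc2 and Txnip were the members with the largest differences in astrocyte ribosome-bound RNA, with means 2.66 and 2.50 times those of naïve mice. Arrdc3 was 1.27-fold higher by a small but regular step, and Arrdc4 and Arrdc1 overlapped between the groups. These values belong to the contrast from which the set was chosen and carry no test. In bulk tissue RNA, fewer cells of a type and less RNA per cell cannot be told apart.

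Arrdc2, an adaptor with few known cargoes, was at 9.30, 10.8, 20.6 and 10.0 CPM in naïve IP replicates 2, 8, 11 and 13. In stress IP replicates 4, 5, 6 and 15 it was at 40.9, 39.3, 31.7 and 23.3 CPM. The groups did not overlap, although replicate 11 came close to the lowest stressed library, replicate 15. The means were 12.7 ± 5.33 and 33.8 ± 8.11 CPM (SD, n = 4), a ratio of 2.66 and a difference of 1.45 ± 0.24 (SE) on the log2(CPM + 0.1) scale, or 1.71 without replicate 11.

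Txnip was at 8.42, 8.82, 28.0 and 7.86 CPM in the same naïve IP libraries and at 36.0, 31.5, 44.6 and 20.5 CPM in stress IP. The remaining naïve libraries lay close together and far below every stressed library, but the naïve replicate 11 exceeded the stressed replicate 15, so the groups overlapped. The means were 13.3 ± 9.81 and 33.2 ± 10.1 CPM, a ratio of 2.50. The log2 difference was 1.49 ± 0.36 (SE), and without replicate 11 it was 1.92, and the groups then did not overlap.

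In the naïve IP libraries Arrdc3 stood at 17.4, 21.9, 20.4 and 17.6 CPM, against 23.7, 25.0, 26.7 and 22.9 CPM after stress. Every stressed library was above every naïve library, and replicate 11 did not stand out. The log2 difference was 0.35 ± 0.09 (SE). Arrdc2 and Arrdc3 were thus 2 of the 5 members with higher values in stress IP and no overlap, a pattern that 2.38% of the 12501 genes tested had, and without replicate 11 there were 3. From a set chosen on this contrast nothing is read from that count.

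The 4 naïve IP values of Arrdc4 ran from 2.82 to 3.45 CPM and the stress IP values from 2.77 to 3.94 CPM, a log2 difference of 0.08 ± 0.16 (SE). Arrdc1, the rarest member at 20 to 97 reads per library, was at 1.07 to 1.68 CPM in naïve IP and 0.804 to 1.58 CPM in stress IP, a difference of −0.37 ± 0.26. Both genes overlapped between the groups. The summed level of 5 endothelial markers was 9.50 to 13.3 CPM in naïve IP, highest in replicate 11, and 7.35 to 9.37 CPM in stress IP, the one marker sum of 8 cell types that did not overlap, and its part in the members' values was not tested. In stress IP against naïve IP only 2 of these 5 markers were above the filter of 1 CPM and tested, and neither passed. All 5 were tested in stress INPUT against naïve INPUT, and none passed.

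**Figure D2:**
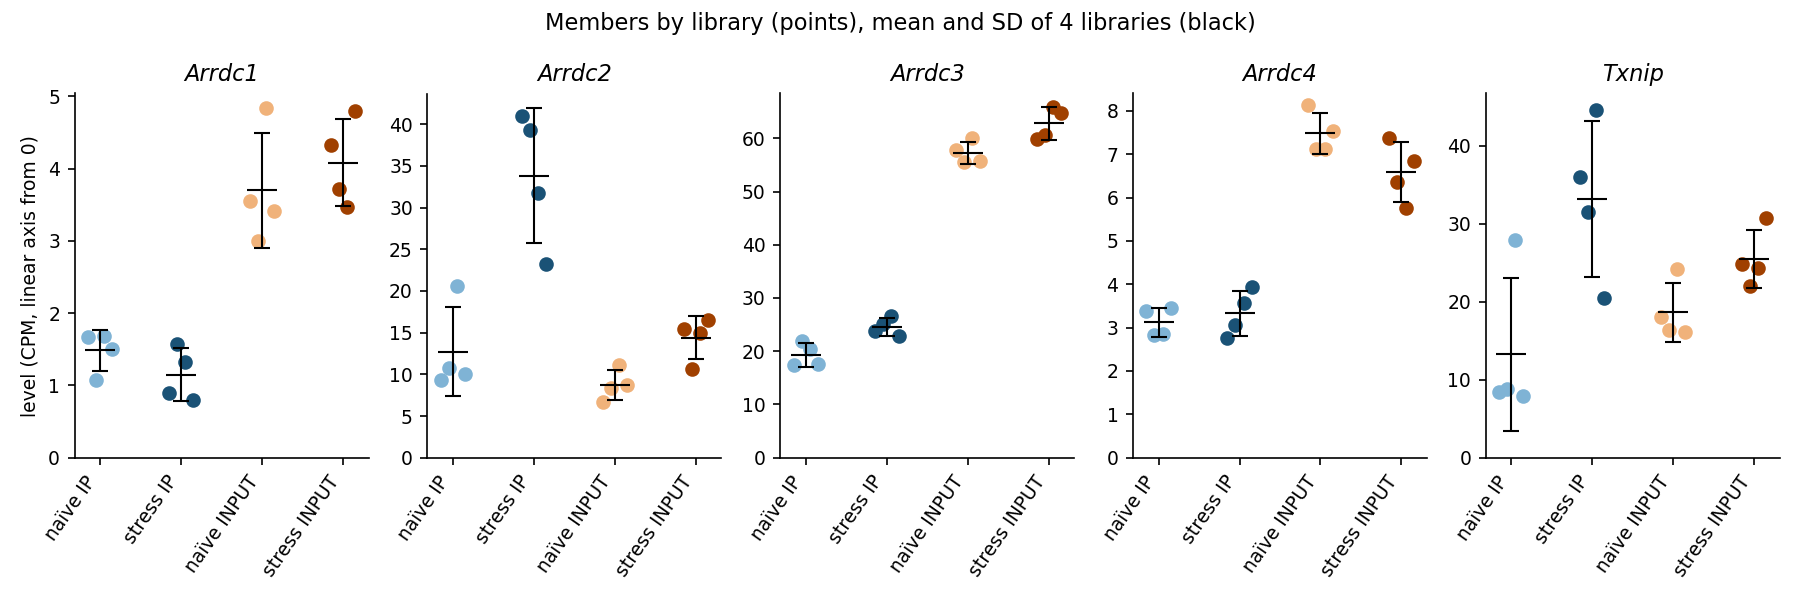
Level of the 5 genes in CPM (linear axes from 0, a different scale for each gene), with 1 point per library and the mean and SD of 4 libraries in black. Arrdc2 and Txnip are high in stress IP, with naïve IP replicate 11 apart from its group at 20.6 and 28.0 CPM, while Arrdc3, Arrdc4 and Arrdc1 are far lower in IP than in INPUT.

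In INPUT, the whole-tissue RNA, libraries were not used to choose the set, and the stress difference was tested. By the methods, though, INPUT came from the lysates of the same animals as IP and holds the RNA of their astrocytes too. The INPUT values are thus not independent of the choice, and the part of the choice in them was not tested. None of the 5 genes passed the threshold of an adjusted p of 0.05 (limma, Benjamini-Hochberg over 13577 genes), where 0.0442% of all genes, 6 in number, passed. With unadjusted p under 0.05 there were 3 members, Arrdc2, Txnip and Arrdc3, among 683 genes of all tested, and limma-voom on reads also called 0 of the 5.

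Arrdc2 was at 6.66, 8.42, 11.1 and 8.70 CPM in naïve INPUT replicates 3, 7, 14 and 16 and at 15.4, 10.7, 14.9 and 16.5 CPM in stress INPUT replicates 1, 9, 10 and 12. All stressed libraries but replicate 9 lay above all naïve ones, and replicate 9 lay just under naïve replicate 14. The log2 difference was 0.72 ± 0.16 (SE), with a limma adjusted p of 0.21 and an exact two-sided permutation p of 0.057, where 4 against 4 libraries cannot go below 0.0286. Without replicate 9 the difference was 0.85 with an adjusted p of 0.033, and with limma's array weights it was 0.82 with an adjusted p of 0.023. No other alternative gave a call, and adjusted p reached 0.79 with all 16 libraries in 1 model and 0.83 without replicate 12.

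Txnip was at 18.1, 16.3, 24.1 and 16.1 CPM in naïve INPUT and at 24.8, 22.0, 24.4 and 30.7 CPM in stress INPUT. Again replicate 14 was the highest naïve library and replicate 9 the lowest stressed one, and these overlapped. The difference of 0.46 ± 0.13 (SE) had a limma adjusted p of 0.53 and an exact permutation p of 0.057. Arrdc3, at 55.6 to 60.0 CPM in naïve and 59.8 to 66.0 CPM in stress INPUT, differed by 0.13 ± 0.06 (limma adjusted p = 0.97, exact permutation p = 0.057).

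Arrdc4 was at 7.12 to 8.13 CPM in naïve INPUT and 5.75 to 7.38 CPM in stress INPUT, a difference of −0.18 ± 0.12 (limma adjusted p = 0.99). Arrdc1 was at 3.00 to 4.84 CPM and 3.47 to 4.80 CPM, a difference of 0.15 ± 0.18 (limma adjusted p = 0.99). All 5 members overlapped between naïve and stress INPUT, as against 2.87% of all genes that did not.

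Set side by side, the stress difference of Arrdc2 was 1.45 ± 0.24 (SE) in IP and 0.72 ± 0.16 in INPUT, and that of Txnip 1.49 ± 0.36 and 0.46 ± 0.13, each on the log2(CPM + 0.1) scale. Arrdc3 was at 0.35 ± 0.09 and 0.13 ± 0.06. The difference between the fractions uses the contrast that chose the set and was not tested. For Arrdc4 and Arrdc1 the sign was not the same in both fractions.

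**Figure D3:**
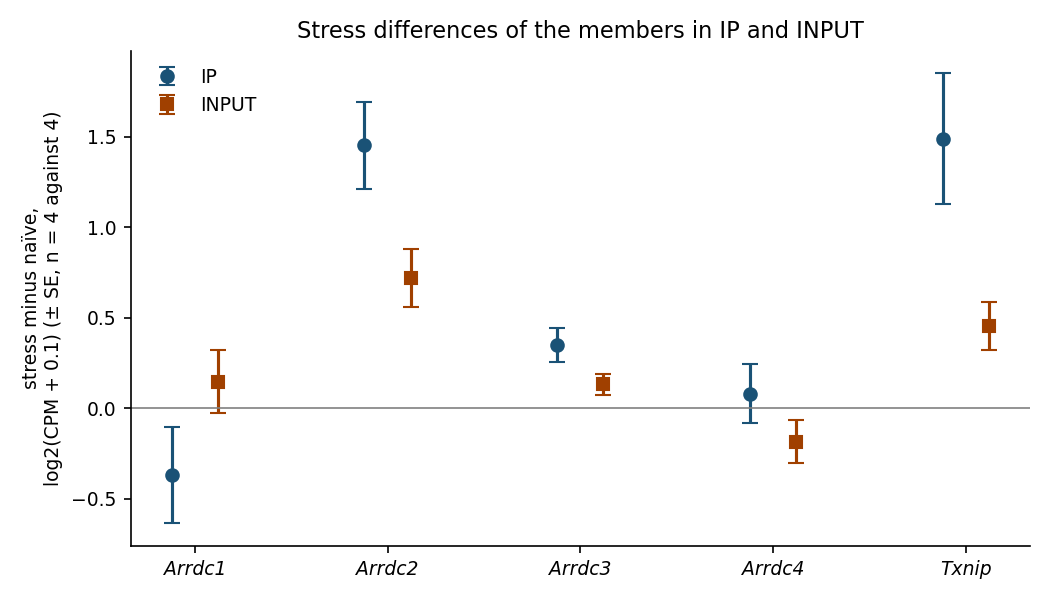
Difference of stressed and naïve mice on the log2(CPM + 0.1) scale (vertical axis) for each gene in IP (circles) and INPUT (squares), with bars of 1 SE, 4 libraries against 4. Arrdc2 (1.45 and 0.72) and Txnip (1.49 and 0.46) lie furthest above 0 in both fractions.

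Because the groups hold both sexes, the stress difference was also taken within the libraries of high Xist and within those of low Xist. These are 2 against 2 libraries, given as values with no test. Groups of 2 often fail to overlap by chance alone. The share of all genes that did so was not counted, so nothing is read from overlap here. In IP, Arrdc2 was higher by 1.99 in the high-Xist and by 0.91 in the low-Xist libraries, without overlap in either. Txnip was higher by 1.95 without overlap in the high-Xist libraries and by 1.02 with overlap in the low-Xist ones, which hold replicates 11 and 15. Arrdc3 was higher without overlap in both sets, by 0.32 and 0.38. Arrdc1 differed by −0.16 with overlap at high Xist and by −0.58 without overlap at low Xist. Arrdc4 differed by −0.08 with overlap at high Xist and by 0.25 without overlap at low Xist. In INPUT, Arrdc2 was higher by 0.99 without overlap at high Xist and by 0.45 with overlap at low Xist, and Txnip likewise by 0.53 and 0.39. Within both sets of INPUT libraries Arrdc3 was higher without overlap, by 0.15 and 0.12, and Arrdc4 lower without overlap, by −0.26 and −0.11.

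Arrdc3, Arrdc4 and Arrdc1 were lower in IP than in INPUT in naïve and in stressed mice, as most genes were, and Txnip did not pass the test in either. Of the 4 genes tested, 3 were lower in naïve mice, where 64.0% of all 13339 genes were lower and 23.7% higher. In stressed mice the same 3 were lower, where 62.5% of all genes were lower and 23.6% higher. A count of 3 in 4 is thus near the background. The median of all genes was −0.64 in naïve and −0.63 in stressed mice, and the values below are best read against it. The top 10 genes took 18.1 to 19.6% of the reads in IP and 3.65 to 3.92% in INPUT, and the part of this in the median was not tested. By the methods each mouse gave an IP and an INPUT library, but the libraries could not be matched, so the fits treat them as independent.

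Arrdc3 had the strongest and most even depletion among the tested members in naïve mice, with means of 19.3 ± 2.21 CPM for IP against 57.3 ± 2.10 CPM for INPUT (SD, n = 4). That was a log2 difference of −1.57 ± 0.08 (SE, limma adjusted p = 4.4e-10), and −1.35 ± 0.07 in stressed mice (adjusted p = 1.9e-09). Arrdc4 was at 3.13 ± 0.332 against 7.48 ± 0.475 CPM, a difference of −1.24 ± 0.13 (adjusted p = 7.1e-07). In stressed mice it was −0.97 ± 0.15 (adjusted p = 7.2e-05), which did not hold once the libraries were rescaled by the median ratio (−0.35, adjusted p = 0.052).

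Arrdc1 was at 1.48 ± 0.283 against 3.70 ± 0.793 CPM in naïve mice, a difference of −1.26 ± 0.21 (limma adjusted p = 5.9e-05). In stressed mice it was −1.78 ± 0.23 (adjusted p = 1.3e-05). After median ratio rescaling, which moved the median of all genes to 0.01 in naïve mice, Arrdc1 was still at −0.65, Arrdc3 at −0.93 and Arrdc4 at −0.61. The split of all genes moved from 3158 higher and 8540 lower to 5634 higher and 5580 lower.

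Txnip was the member whose sign differed between naïve and stressed mice. Its log2 difference was −0.70 ± 0.32 in naïve mice (limma adjusted p = 0.057, exact permutation p = 0.14) and 0.34 ± 0.19 in stressed mice (limma adjusted p = 0.12). Both values moved with single libraries. Without replicate 11 the naïve value was −1.13 (adjusted p = 2.6e-06), and without replicate 15 the stressed value was 0.55 (adjusted p = 0.0017), while without replicate 6 it was 0.18 (adjusted p = 0.37). Array weights also gave a call in each, at −0.84 (limma adjusted p = 0.0030) and 0.41 (adjusted p = 0.032), as did 1 model of all 16 libraries in naïve mice (adjusted p = 0.040). Median ratio rescaling gave −0.06 in naïve and 0.97 in stressed mice (adjusted p = 0.00029 for the latter), so the direction in naïve mice is not settled by these data.

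For Arrdc2, naïve mice had 12.7 ± 5.33 CPM in IP against 8.73 ± 1.83 CPM in INPUT, a log2 difference of 0.48 ± 0.22 that fell to 0.22 without replicate 11 and was 1.12 after rescaling. In stressed mice all IP libraries lay above all INPUT libraries, at 33.8 ± 8.11 against 14.4 ± 2.56 CPM, a difference of 1.21 ± 0.18 or 1.84 after rescaling. These values are a description, because the IP levels of Arrdc2 had a part in choosing the set.

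**Figure D4:**
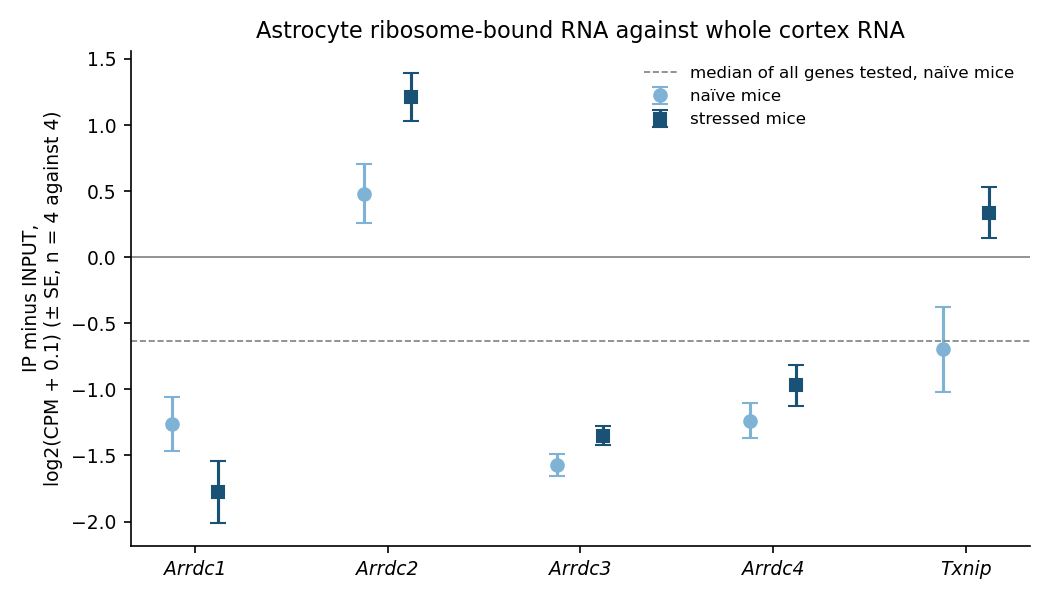
IP minus INPUT on the log2(CPM + 0.1) scale (vertical axis) for each gene in naïve (circles) and stressed mice (squares), with bars of 1 SE, 4 libraries against 4, and a dashed line at the median of all genes tested in naïve mice, −0.64. Arrdc2 lies above 0 in both, Txnip changes side from −0.70 to 0.34, and Arrdc1, Arrdc3 and Arrdc4 lie below the median in both.

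Arrdc2 and Txnip varied together from library to library. With each fraction centred on its own mean, their log2 levels had a Pearson r of 0.92 over the 16 libraries (0.94 without replicate 11), and of 0.83 when each of the 4 groups was centred. Arrdc3 had an r of 0.83 with each of them, but of 0.44 with Arrdc2 and 0.53 with Txnip when each group was centred. Arrdc1 and Arrdc4 had an r between −0.27 and −0.01 with the other members. With each group centred, Arrdc1 had an r of 0.44 with Arrdc2 and 0.49 with Txnip, and Arrdc4 had −0.57 with Arrdc2. For Arrdc2 and for Txnip, replicate 11 was the highest of naïve IP and replicate 14 the highest of naïve INPUT. For the same pair, replicate 15 was the lowest of stress IP and replicate 9 the lowest of stress INPUT. These are descriptions over libraries that share the stress contrast and come from IP and INPUT of the same mice, without a key to which belong together.

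**Figure D5:**
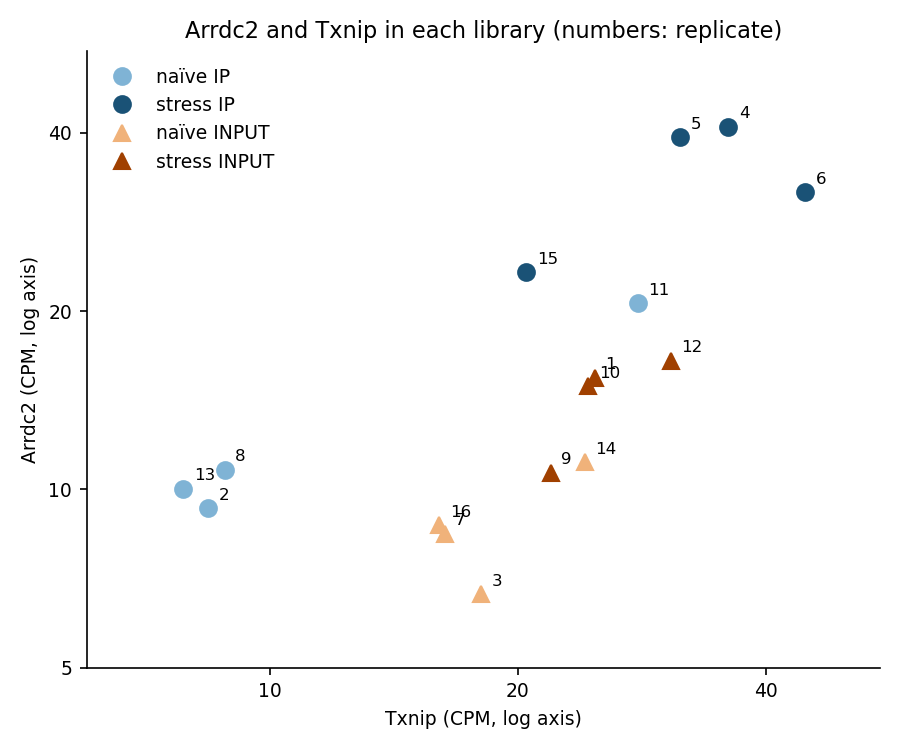
Level of Arrdc2 against that of Txnip in CPM (both log axes), with 1 point per library, labelled by its replicate number. The points rise together within IP and within INPUT, with naïve IP replicate 11 (20.6 CPM of Arrdc2, 28.0 CPM of Txnip) beside the stressed libraries.

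Of 12305 genes compared, those most like Arrdc2 in this pattern were Errfi1 (r = 0.97), an inhibitor of the EGF receptor, 1810011O10Rik (0.97), Slc35e4 (0.96), Nfkbia (0.96), the inhibitor of NF-kappaB, and Rhob (0.96), a small GTPase. Txnip itself was 17th in that order and Arrdc3 was 51st. Those most like Txnip were Slc19a2 (0.96), a thiamine transporter, Rhob (0.95), Fam43a (0.94), Mycl (0.94) and 1810011O10Rik (0.94). Arrdc3 was most like Trp53inp1 (0.93), a p53-induced gene, and then Slc19a2 (0.89) and Sertad4 (0.86). Likeness was lower for Arrdc1, led by 1110038B12Rik (0.88), and for Arrdc4, led by Gpr26 (0.80) and Armcx2 (0.80).

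Further genes were read from 6 lists, not all of which hold partners of the alpha-arrestins. Those other than the glucocorticoid list held 50 tested genes in stress IP against naïve IP: the arrestin-fold relatives, the NEDD4-family ligases and adaptors, ESCRT genes, the thioredoxin system, and the Mondo-Mlx factors with glucose entry. None of the 50 passed the limma threshold, and limma-voom called 0. Of these 50, 3 had an unadjusted limma p under 0.05, beside 1034 of all 12501 genes. The list medians lay between −0.06 and 0.04, beside a median of 0.00 for all genes. With 0.216% of all genes higher and 0.224% lower, a count of 0 in 50 is near the background. In stress INPUT against naïve INPUT 0 of 50 passed as well (0 with limma-voom), beside 0.0442% of all genes. There 4 of the 50 had an unadjusted limma p under 0.05, beside 683 of all 13577 genes.

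The glucocorticoid list held 12 genes known to rise with glucocorticoids, the adrenal steroids released in stress. It was chosen with earlier results of these data known, so its calls are no independent check. In IP, 2 of 12 were higher by limma and 0 lower, where 0.216% of all genes were higher and 0.224% lower, and the list median was 0.45. Nfkbia went from 35.9 ± 13.6 to 76.2 ± 7.59 CPM, a log2 difference of 1.14 ± 0.19 (limma adjusted p = 0.025). Tsc22d3, which encodes the glucocorticoid-induced leucine zipper GILZ, went from 285 ± 111 to 601 ± 85.5 CPM, also 1.14 with an SE of 0.21 (adjusted p = 0.039). Each was called in 2 of the 8 fits that left out 1 library, with adjusted p of 3.6e-05 and 0.00029 without replicate 11. In INPUT none of the 12 passed by limma or by limma-voom, and the list median was 0.39. There 9 of the 12 had an unadjusted limma p under 0.05, beside 683 of all 13577 genes.

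In IP against INPUT in naïve mice, the counts of the lists stand beside 23.7% higher and 64.0% lower among all genes. Of 12 thioredoxin genes 6 were higher and 4 lower in naïve mice, from Prdx6, a peroxiredoxin, at 2.89 to Srxn1, sulfiredoxin, at −1.73. Of the glucose list 3 were higher and 3 lower of 8. The glucose transporter genes stood at 2.51 (Slc2a4), 1.27 (Slc2a1) and −3.46 (the neuronal Slc2a3). Slc2a4 passed the filter of 1 CPM only through IP, at 3.39 ± 1.33 CPM against 0.557 ± 0.364 CPM in naïve INPUT. No weight is put on its call for that reason. Of 7 arrestin-fold relatives 3 were higher and 4 lower, from Dscr3 at 1.03 to Sag at −2.85. The beta-arrestins were on opposite sides, Arrb1 at 0.57 and Arrb2 at −1.53. Sag passed the filter only through INPUT, at 0.229 ± 0.0788 CPM in naïve IP against 2.26 ± 0.546 CPM in naïve INPUT. Its call is likewise given no weight. Among 11 NEDD4-family genes 3 were higher and 6 lower, from Smurf2 at 0.55 to Hecw2 at −3.22.

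Of 13 ESCRT genes 2 were higher and 9 lower, between Vps37a at 0.54 and Vps37b at −1.05. Of the 12 glucocorticoid-responsive genes 5 were higher and 6 lower, from Pdk4, a brake on pyruvate oxidation, at 3.49 to Sgk1, a kinase, at −2.54. All of these are log2 differences in naïve mice by limma, and those near −0.64 are near the median of all genes. Arrdc5, placed here in the arrestin-fold list and not in the set of 5 members, had 0 reads in all 16 libraries.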

How the data were processed

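STAR alignment to mm10 and HTSeq counting of uniquely mapped fragments on RefSeq genes were done by the authors, who deposited 1 table of log2 CPM values per library. Versions and the strand setting are not given in the sources used here. The values have a floor of −6.40, the log2 of the constant the authors added, and neither gene length nor a scaling across libraries enters them. Without the constant, 100% of values were whole reads (within 0.01 read), and no 2 libraries were identical.

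CPM without the constant was tested as log2(CPM + 0.1) with limma 3.58.1 in R 4.3.3 (lmFit, eBayes with a variance trend) for all genes whose mean exceeded 1 CPM over the 8 libraries of a comparison. The threshold was a Benjamini-Hochberg adjusted p of 0.05. Members in INPUT were also given exact permutation p, two-sided. The fit was tested on simulated reads. IP and INPUT came from the same mice, but the labels do not pair them, so libraries were treated as independent. Depth ran from 16392876 to 25814364 reads on genes, so 3 reads are at most 0.183 CPM, which covers counting error only since reads after PCR are not independent molecules. Exon lengths came from GENCODE M21, where 22758 of 24060 symbols had 1 annotated gene, and promoters came from RefSeq. The genes named are the 5 members, the listed relatives and the genes of highest r. The members and lists were chosen with earlier results of these data known. Plots and tables used Python 3.11.15, pandas 2.3.3, NumPy 2.4.6 and matplotlib 3.10.9. Alternatives were other pseudocounts and filters, median ratio rescaling, limma-voom, array weights, no variance trend, 1 model of all 16 libraries, Xist as a covariate, the longest transcript and leaving out each library.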

Additional observations from a re-analysis of the deposited data

Results flagged for a closer look

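In all, 2 values of the 20 groups of 4 libraries checked lay further from their group than the critical value of Dixon's ratio for 4 samples allows, where chance gives about 1. Both were in naïve IP replicate 11. Arrdc2 was at 20.6 CPM there, against 9.30 to 10.8 CPM for the rest of its group (gap over range 0.868). Txnip was at 28.0 CPM there, against 7.86 to 8.82 CPM for the rest (0.952).

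In the same library 9 of the 12 glucocorticoid-responsive genes lay above all other naïve IP libraries, as did 2625 of 12512 genes tested. Fkbp5, a glucocorticoid receptor co-chaperone, was at 39.8 CPM against 5.31 to 8.55 CPM in the others, and Per1, a clock gene, at 98.5 CPM against 43.9 to 59.6 CPM. The cause was not tested.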

How the results depend on the processing

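No paired analysis was possible because the replicate numbers are not shared between groups and the labels do not tie IP to INPUT libraries of a mouse. Of 354 recomputed log2 differences of the members, 343 kept their direction and side of the threshold or, where untested, stayed within the replicate spread. Other filters, no variance trend and 1 model of all 16 libraries leave the log2 difference itself unchanged. Untested differences could therefore not move under those settings, and the 343 include them. The counts below moved more. Genes past the threshold in stress INPUT against naïve INPUT numbered 6, and 0 with no variance trend, 50 with array weights, 2 with all 16 libraries in 1 model and 1 to 32 when 1 library was left out (32 without replicate 14 and 18 without replicate 9), and 1 member passed with array weights (0 to 1 with a library left out, the 1 being Arrdc2 without replicate 9). In stress IP against naïve IP the 55 genes became 19, 143 and 124 under the same 3 settings and 17 to 122 with a library left out (122 without replicate 11 and 101 without replicate 15). In stress IP against stress INPUT 1 member instead of 3 passed with a minimum mean of 5 CPM, because Arrdc1 and Arrdc4 were then not tested. The order of the members by level was the same in 0 of 4 groups with the longest transcript. A count model of the negative binomial kind was not run, since the deposited values are log2 CPM, and limma-voom on recovered reads stood in for it. Arrdc1, at 20 to 97 reads, is the member whose precision depth limits most.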
